A study of Mus musculus with 6 samples.

Results

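The genes described here are 10 transcription factors of blood stem cells: Meis1, Hlf, Prdm16, Mecom, Gata2, Tal1, Lmo2, Runx1, Gfi1 and Gfi1b. They were chosen by name. Every probe set whose only gene symbol in the platform annotation was 1 of these names was taken, which gave 11 probe sets with values: 2 for Mecom and 1 for each of the other genes. The whole table holds 34499 probe sets with values and 19934 genes with a symbol of their own. RNA came from sorted mouse bone marrow cells and was read on 6 whole-transcript arrays, 2 in each of 3 groups. HSC arrays hold Lin-c-Kit+Sca-1+ cells without BCR-ABL, labelled as vector and so given GFP alone. LSC arrays hold GFP+Lin-c-Kit+Sca-1+ leukaemia stem cells carrying BCR-ABL, the kinase fusion of chronic myeloid leukaemia, from wild-type (WT) C57BL/6 donors. Alox5-/- LSC arrays hold the same kind of BCR-ABL cells from donors without Alox5, the gene of arachidonate 5-lipoxygenase. Mice are labelled C57BL/6 (B6) and 8 weeks old. In all groups the donors had been given fluorouracil, the marrow had been through retroviral transduction and transplantation into B6 recipients, and cells were taken 14 days later. The model is therefore one of retroviral expression in transplanted marrow, and the animals behind an array are not counted in any source used here. GFP alone in Alox5-/- marrow was not analysed here. Every group mean ± SD below rests on n = 2. The titles call the replicates biological, and p-values measure the spread between these arrays.

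These factors form a network that keeps blood stem cells in their state. Tal1, Lmo2, Gata2 and Runx1 bind many shared enhancers as parts of large complexes, in which Lmo2 bridges DNA-binding partners without touching DNA itself. Meis1 works beside HOX proteins, Hlf, Mecom and Prdm16 sustain self-renewal, and Gfi1 and Gfi1b are repressors that restrain proliferation and steer lineage choice. The study asked which genes BCR-ABL and the loss of Alox5 alter in leukaemia stem cells.

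The unit of the deposited score is not stated. Expression Console 1.1 and RMA, which returns log2 expression, are named in the submitters' processing notes, but the scores ran from 0 to 62.1 and 33.5% to 53.7% of each array lay above 16, beyond what log2 of a 16-bit scan can reach. Neither the scale nor the direction of the score is given in the sources used here. Probe sets were ranked by mean score. The 13 of genes that every cell uses had a median percentile of 33.3 (Actb 5.56), with 5 above the 50th. The 9 of genes of other tissues had a median of 74.4 (Prm1 96.2), with 2 below the 50th. Which way the score runs was not tested. A higher score is therefore not read as more RNA, and all differences below are differences of the score, with no fold change. Kit, which encodes the c-Kit of the sorting gate, had scores of 12.6 and 15.4 in HSC, 11.1 and 14.5 in LSC, and 11.5 and 10.5 in Alox5-/- LSC. Ly6a, the gene of Sca-1, had no probe set with a symbol of its own, so of the gate's positive markers only c-Kit had values, and none of them was 0.

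Each of the 34499 probe sets was tested with limma over all 6 arrays, with Benjamini-Hochberg adjustment across the full set. Of the 11 stem cell factor probe sets, 0 passed an adjusted p of 0.05 in any comparison, and 0 of all probe sets did (background 0% in each). At an unadjusted limma p under 0.05 there was 1 member in LSC minus HSC, Meis1 with a lower score in LSC, where 4.94% of all probe sets stood (1.49% higher and 3.45% lower). In Alox5-/- LSC minus LSC there was 1, Gfi1 with a higher score in Alox5-/- LSC (background 3.96%, 1.22% higher and 2.73% lower). In Alox5-/- LSC minus HSC there was 1, Meis1 with a lower score in Alox5-/- LSC (background 6.44%, 1.12% higher and 5.32% lower).

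The same members were looked at for groups whose values did not overlap. LSC lay apart from HSC for 6 of 11 members, 3 higher (Prdm16, Tal1, Runx1) and 3 lower (Meis1, the second Mecom probe set, Gfi1). Over all probe sets this held for 34.2%, with 11.1% higher and 23.0% lower. Alox5-/- LSC lay apart from LSC for 4, of which 1 was higher (Gfi1) and 3 lower (Meis1, Hlf, Runx1), where the background is 31.6%, with 10.9% higher and 20.7% lower. Alox5-/- LSC lay apart from HSC for 3, of which 2 were higher (Tal1, Gfi1) and 1 lower (Meis1), where the background is 35.7%, with 8.13% higher and 27.6% lower. After centring of the arrays Gfi1 and the second Mecom probe set overlapped between LSC and HSC, and Runx1 lay higher in Alox5-/- LSC than in HSC without overlap; the other members kept their state. The 3 comparisons share arrays in pairs, so their values are given side by side and are not independent.

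The median difference over all probe sets was -0.43 for LSC minus HSC, -0.28 for Alox5-/- LSC minus LSC and -0.73 for Alox5-/- LSC minus HSC. Over the 11 members the medians were 0.42, -0.24 and -0.57. Centring moved the medians of all probe sets to 0.05, 0.12 and 0.15. Single arrays carried much of these medians: without HSC replicate 2 the first was -0.06, and without Alox5-/- LSC replicate 2 the second was 0.19 and the third -0.24. Of the probe sets at an unadjusted p under 0.05 in LSC minus HSC, 69.9% had lower scores in LSC, against 53.1% once each array was centred on its median and 52.9% after quantile normalization. For Alox5-/- LSC minus LSC these shares were 69.1%, 48.6% and 52.3%, and for Alox5-/- LSC minus HSC 82.5%, 49.1% and 52.2%. Without Alox5-/- LSC replicate 2 the share with lower scores was 31.0% for Alox5-/- LSC minus LSC and 46.7% for Alox5-/- LSC minus HSC, and without LSC replicate 1 it was 53.8% for LSC minus HSC. Array medians ran from 14.5 to 16.4, with HSC replicate 2 highest and Alox5-/- LSC replicate 2 lowest. Correlations over probe sets, themselves not independent, ran from 0.794 to 0.824 within groups and from 0.782 to 0.839 between groups.

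**Figure D1:**
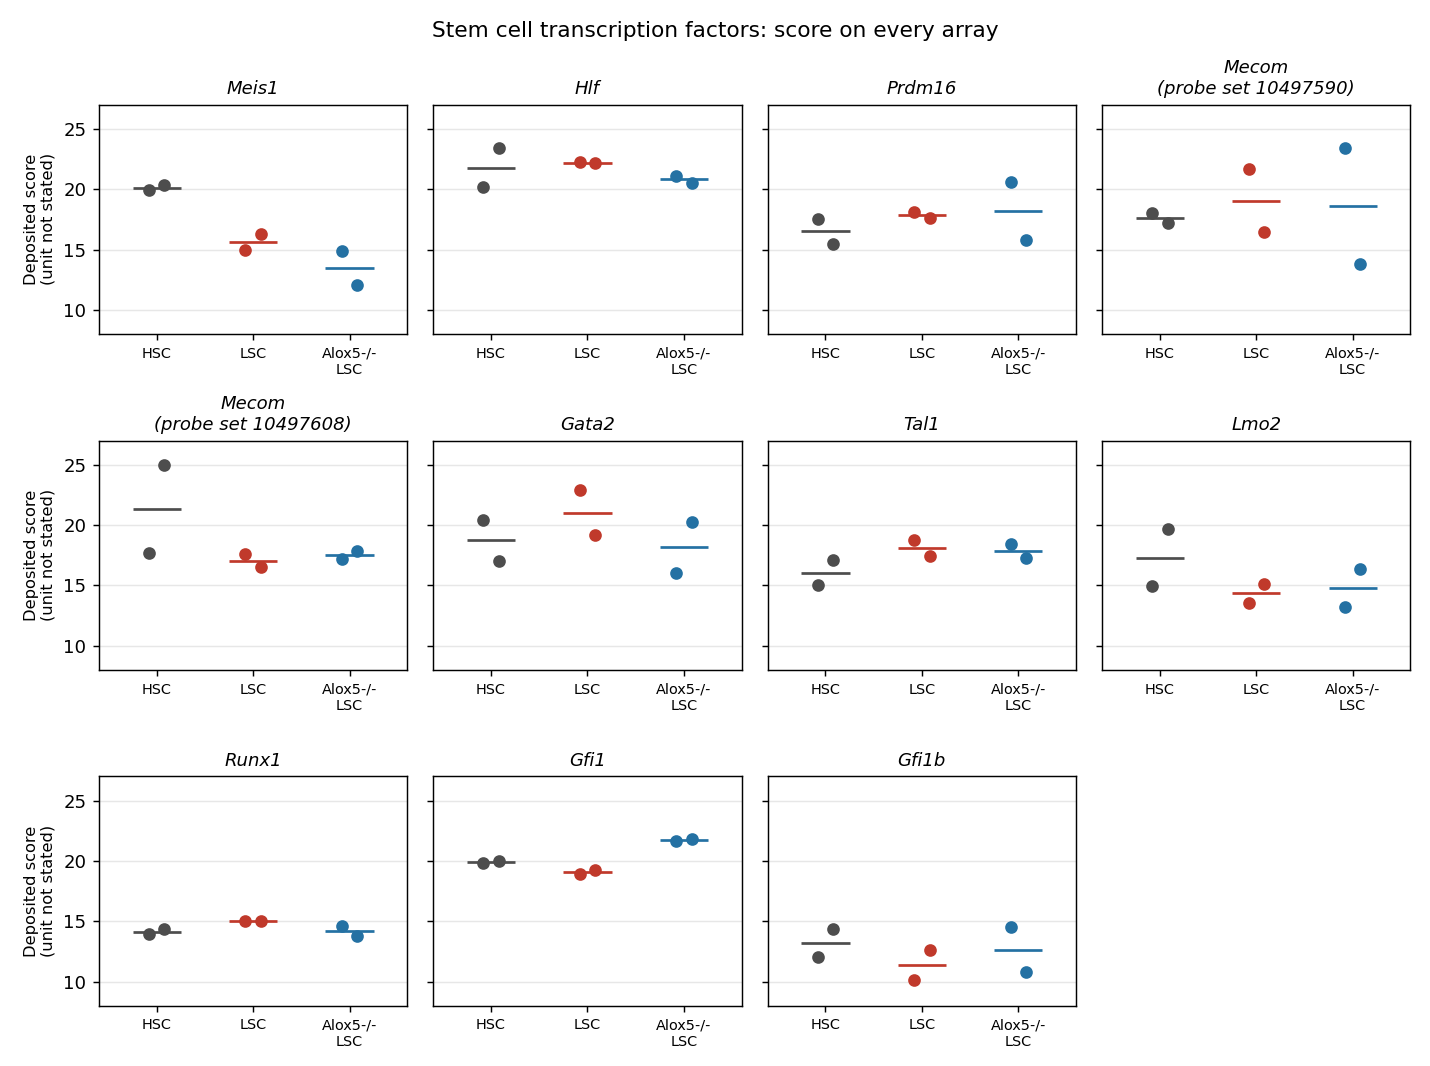
Deposited score (vertical axis, unit not stated) of each stem cell factor probe set on every array; points are the 2 replicates of a group and bars their mean. Meis1 stood at 19.9 and 20.4 on the HSC arrays and at 16.3 or less on all BCR-ABL arrays, and the Gfi1 replicates lay within 0.35 of each other in every group as deposited.

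Meis1, the homeobox partner of HOX proteins in stem cells and in leukaemias, had the largest difference of the 11 probe sets in LSC minus HSC and in Alox5-/- LSC minus HSC. Its scores were 19.9 and 20.4 in HSC, 14.95 and 16.3 in LSC, and 14.91 and 12.1 in Alox5-/- LSC. The 3 groups lay apart from each other, with HSC highest and the BCR-ABL groups nearly touching. That arrangement, in any order of the groups, held for 2 of the 11 members (Meis1 and Gfi1) and for 6.87% of all probe sets. LSC stood at 15.6 ± 0.94 (SD) and HSC at 20.1 ± 0.31, a difference of -4.52 ± 1.38 (SE; 95% interval -7.91 to -1.13; limma adjusted p = 0.993). Alox5-/- LSC stood at 13.5 ± 1.99, and its difference from HSC was -6.63 ± 1.38 (-10.02 to -3.24; limma adjusted p = 0.769). Between the BCR-ABL groups Meis1 differed by -2.11, with a 95% interval from -5.50 to 1.28. It was -0.70 without Alox5-/- LSC replicate 2 and -3.52 without Alox5-/- LSC replicate 1.

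The Meis1 difference between Alox5-/- LSC and HSC kept an unadjusted limma p under 0.05 in 15 of 15 other settings, with values from -8.04 to -5.22 on the score's own scale. The LSC minus HSC difference did so in 12 of 15, from -5.18 to -3.85, and did not with the description number as a covariate, without HSC replicate 2 or without LSC replicate 1. Centring the arrays brought it to -4.04 and quantile normalization to -4.00. Cd79a, a B cell receptor chain, also scored lower on every BCR-ABL array than on both HSC arrays. Over all probe sets LSC lay below HSC without overlap for 23.0% and Alox5-/- LSC for 27.6%, and the share with both was not counted. Cd79a stood at 23.7 and 28.2 in HSC, 16.9 and 13.9 in LSC, and 15.1 and 11.54 in Alox5-/- LSC. From replicate 1 to replicate 2 Cd79a ran opposite to Meis1 in LSC, and the same way as Meis1 in HSC and in Alox5-/- LSC. The summed score of the 2 measured B cell markers, Cd79a and Ms4a1, ran from 38.4 to 45.3 in HSC, from 26.7 to 31.0 in LSC and from 25.02 to 28.1 in Alox5-/- LSC, and neither was at 0 on any array. The part of other cells in the Meis1 result was not tested, and whichever way the score runs, bulk RNA cannot tell the number of cells of a type from the RNA in each of them.

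RefSeq (GRCm38.p6) gives a Meis1 start at position 19018969 of chromosome 11, on the minus strand, 682 bases inside the outer end of the annotated gene. Meis1 is shown because its scores carried the widest gap between HSC and the BCR-ABL groups. Windows of 250 bases before to 50 after each annotated start were searched on both strands for 6 motifs of 6 letters. RUNX factors were searched as TGTGGT and ETS factors as CGGAAG. For GATA factors the letters searched were AGATAA, and the E-box of bHLH factors was searched as CAGCTG. The GFI repressors were searched as AATCAC, and the MEIS family as TGACAG. Different motifs were counted separately, and none overlapped in the stretches printed. The Meis1 window held 1 RUNX and 1 ETS match, in capitals in these stretches of 30 bases at chr11:19019118-19019147 and chr11:19018964-19018993.
Meis1, RUNX match 166 bases before the start: gtgccctgggtgTGTGGTgttagtgcctgg
Meis1, ETS match (minus direction of the motif) 12 bases before the start: tggccaccactaCTTCCGggttctagcatt

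Among all 32851 mouse windows of this length, 16.8% held the RUNX letters and 16.9% the ETS letters. A window was found for 9 of the 10 genes, 14 windows in all. RUNX letters were in 2 of the 14, those of Meis1 and of 1 Runx1 start. ETS letters were in 3, belonging to Meis1, Mecom and Gfi1. GATA letters were in 1 (Tal1; 11.2% of all windows), E-box letters in 1 (Gata2; 16.3%), GFI letters in 2 (both of Runx1; 10.4%) and MEIS letters in 1 (Mecom; 19.2%). A match describes the letters only.

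Hlf, a bZIP factor of stem cell identity, showed small differences. Its scores were 20.2 and 23.4 in HSC, 22.22 and 22.20 in LSC, and 21.1 and 20.5 in Alox5-/- LSC. The LSC replicates were closer than those of 99.4% of probe sets, while the HSC replicates spanned the LSC values. The LSC minus HSC difference was 0.42 (95% interval -3.09 to 3.94), and it was -1.18 without HSC replicate 1 and 2.02 without HSC replicate 2. Alox5-/- LSC minus LSC was -1.40 (-4.92 to 2.12), with both Alox5-/- LSC arrays below both LSC arrays.

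Prdm16, a PR-domain factor needed to maintain the stem cell pool, stood at 17.5 and 15.5 in HSC, 18.1 and 17.6 in LSC, and 20.6 and 15.8 in Alox5-/- LSC. The LSC values lay just above the HSC values, and the Alox5-/- LSC values ran from inside the HSC range to above both LSC arrays. Its difference for LSC minus HSC was 1.34 (95% interval -3.19 to 5.88), and it was 0.34 without HSC replicate 2 and 2.35 without HSC replicate 1. Against HSC, Alox5-/- LSC differed by 1.68 (-2.85 to 6.21), a value that was 0.11 once the description number entered as a covariate. Alox5-/- LSC minus LSC was 0.34, and -2.08 without Alox5-/- LSC replicate 1.

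Mecom, a paralogue of Prdm16 whose locus gives the short EVI1 and the long MDS1-EVI1 proteins, was read by 2 probe sets that did not agree in pattern. Probe set 10497590 stood at 18.02 and 17.2 in HSC, 21.7 and 16.4 in LSC, and 23.4 and 13.8 in Alox5-/- LSC. Its Alox5-/- LSC replicates were 9.65 apart, wider than for 98.1% of probe sets, so the HSC values lay inside the range of each BCR-ABL group. Probe set 10497608 stood at 17.7 and 24.9 in HSC, 17.6 and 16.5 in LSC, and 17.2 and 17.8 in Alox5-/- LSC. Here 5 of the 6 arrays lay between 16.5 and 17.8, and HSC replicate 2 stood apart.

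The Mecom differences carried the error of those single arrays. For LSC minus HSC they were 1.45 (95% interval -6.80 to 9.69) and -4.24 (-10.09 to 1.61) in the same order. Without HSC replicate 2 the second was -0.59, and without HSC replicate 1 it was -7.88, with an unadjusted limma p under 0.05 in that setting alone of 14. Alox5-/- LSC minus LSC was -0.46 and 0.44, and Alox5-/- LSC minus HSC 0.99 and -3.79; without HSC replicate 2 the last value was -0.15. The first probe set ran from -5.28 to 4.36 in Alox5-/- LSC minus LSC when single arrays were left out. With the description number as a covariate the Mecom values of Alox5-/- LSC minus LSC were -6.28 and 3.73. The annotation pairs the probe sets with partly different Mecom transcripts, and which start each one reads was not settled from the sources used here.

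RefSeq gives Mecom starts at positions 30509759 and 30013204 of chromosome 3 (GRCm38.p6, minus strand), the second 496555 bases inside the gene. The 250 bases before each are shown because the gene has 2 probe sets with unlike values, at chr3:30509760-30510009 and chr3:30013205-30013454. Capitals mark motif matches; the first stretch holds none of the 6 motifs, and the second holds a MEIS match 86 bases and an ETS match 43 bases before the start, both in the minus direction.
Mecom, outer start: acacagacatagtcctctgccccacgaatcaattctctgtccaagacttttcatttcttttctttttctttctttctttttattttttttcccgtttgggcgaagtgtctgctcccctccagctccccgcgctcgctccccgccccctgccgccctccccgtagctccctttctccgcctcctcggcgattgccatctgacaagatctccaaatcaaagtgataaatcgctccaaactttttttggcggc
Mecom, inner start: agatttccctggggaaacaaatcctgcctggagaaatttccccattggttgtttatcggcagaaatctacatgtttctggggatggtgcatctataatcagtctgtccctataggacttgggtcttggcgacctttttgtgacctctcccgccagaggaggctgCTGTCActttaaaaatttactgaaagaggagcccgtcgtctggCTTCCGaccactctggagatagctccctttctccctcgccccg

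Gata2, the zinc finger factor that stem cells need to survive and expand, stood at 20.4 and 17.0 in HSC, 22.9 and 19.1 in LSC, and 16.03 and 20.3 in Alox5-/- LSC. Replicates differed by 3.42 to 4.24 in each group, and all 3 groups overlapped. Gata2 differed by 2.31 in LSC minus HSC (95% interval -3.07 to 7.69) and in Alox5-/- LSC minus LSC by -2.89 (-8.27 to 2.49). Both values rested on single arrays: the first was 0.41 without LSC replicate 1 and 4.21 without LSC replicate 2, and the second -0.77 without Alox5-/- LSC replicate 1 and -5.01 without Alox5-/- LSC replicate 2. The Gata2 difference between Alox5-/- LSC and HSC was -0.58 as deposited, 0.30 after centring and 0.41 after quantile normalization.

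Tal1, the bHLH factor that founds the blood lineage, stood at 15.02 and 17.1 in HSC, 18.7 and 17.4 in LSC, and 18.4 and 17.3 in Alox5-/- LSC. All 4 BCR-ABL arrays lay above both HSC arrays, by as little as 0.16 between HSC replicate 2 and Alox5-/- LSC replicate 2. Over all probe sets LSC lay above HSC without overlap for 11.1% and Alox5-/- LSC for 8.13%, and the share with both was not counted. For Tal1, LSC minus HSC was 2.02 (95% interval -1.17 to 5.22; limma adjusted p = 0.993) and Alox5-/- LSC minus HSC 1.79 (-1.41 to 4.99). Without HSC replicate 1 these were 0.98 and 0.75, and without HSC replicate 2 they were 3.07 and 2.83. Between the BCR-ABL groups Tal1 differed by -0.24 as deposited, 0.17 after centring and 0.08 after quantile normalization.

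Lmo2, the LIM-only bridge between Tal1 and GATA factors, stood at 14.9 and 19.7 in HSC, 13.6 and 15.1 in LSC, and 13.2 and 16.3 in Alox5-/- LSC. HSC replicate 2 stood alone above the other 5 arrays, which lay between 13.2 and 16.3. For Lmo2, LSC minus HSC was -2.95 (95% interval -7.87 to 1.97), and it was -0.58 without HSC replicate 2 and -5.33 without HSC replicate 1. Against HSC, Alox5-/- LSC stood at -2.55, which became -0.17 without HSC replicate 2. Alox5-/- LSC minus LSC was 0.41 (-4.51 to 5.33). With the description number as a covariate it was 4.27, and LSC minus HSC was -4.88. The LSC minus HSC difference had an unadjusted limma p under 0.05 in that setting and without HSC replicate 1, and in none of the other 13.

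Runx1, the DNA-binding partner of Cbfb in definitive blood formation, had the narrowest range over the 6 arrays among the members. It stood at 13.9 and 14.4 in HSC, 15.017 and 15.032 in LSC, and 14.6 and 13.8 in Alox5-/- LSC. Its full range of 1.21 was smaller than that of 98.4% of probe sets, and both LSC arrays lay above the other 4. LSC minus HSC was 0.88 (95% interval -1.76 to 3.52), Alox5-/- LSC minus LSC -0.82 (-3.46 to 1.82) and Alox5-/- LSC minus HSC 0.06 (-2.58 to 2.70). Leaving out single arrays moved the second from -1.21 to -0.43. The sizes of the first 2 values were below limma's SE of 1.08.

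Gfi1, a zinc finger repressor that recruits the demethylase Kdm1a and keeps stem cells from excess division, stood at 19.8 and 20.0 in HSC, 18.9 and 19.2 in LSC, and 21.7 and 21.8 in Alox5-/- LSC. Replicates differed by 0.17, 0.35 and 0.18, so the 3 groups were apart in the scores as deposited, with LSC lowest and Alox5-/- LSC highest. After centring, Gfi1 stood at 4.25 and 3.60 in HSC, 3.41 and 3.72 in LSC, and 5.95 and 7.37 in Alox5-/- LSC relative to the array medians. HSC and LSC then overlapped, the Alox5-/- LSC replicates were 1.42 apart, and both stayed above the other 4 arrays. Alox5-/- LSC minus LSC was 2.69 ± 1.06 (SE; 95% interval 0.08 to 5.30; limma adjusted p = 1.00), from 21.7 ± 0.13 against 19.1 ± 0.24 (SD). For Gfi1, LSC minus HSC was -0.83 (95% interval -3.44 to 1.78), -0.36 centred and -0.23 quantile normalized, and Alox5-/- LSC minus HSC 1.86 (-0.76 to 4.47). As deposited, the share of Gfi1's variance over the 6 arrays that lay between groups was 98.8%, higher than for 99.9% of probe sets, against a median of 37.7%. Its own pooled SD of 0.17 was smaller than that of 99.7% of probe sets, and limma's SE of 1.06 is larger because it draws on the spread of probe sets with like scores.

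The Gfi1 difference between the BCR-ABL groups stayed between 2.52 and 3.10 on the score's own scale over the other settings. Its unadjusted limma p was under 0.05 in 3 of 15 of them: centring, log2(score + 1) and a prior variance without trend. The outer Gfi1 start lies at position 107725805 of chromosome 5 (GRCm38.p6, minus strand). The 250 bases before it, chr5:107725806-107726055, are shown because Gfi1 had the closest replicates of the members relative to its group differences in the deposited scores; they hold none of the 6 motifs, GFI letters included, so no letter is in capitals.
Gfi1, outer start: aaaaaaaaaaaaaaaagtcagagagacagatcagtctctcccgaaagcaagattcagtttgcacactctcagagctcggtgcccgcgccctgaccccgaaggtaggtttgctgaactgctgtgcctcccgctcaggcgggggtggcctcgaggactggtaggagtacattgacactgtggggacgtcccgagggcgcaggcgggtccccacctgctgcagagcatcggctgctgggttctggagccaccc

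Gfi1b, the paralogue that acts in stem cells, red cells and platelets, stood at 12.1 and 14.3 in HSC, 10.1 and 12.6 in LSC, and 14.5 and 10.8 in Alox5-/- LSC. All 3 groups overlapped. Gfi1b differed by -1.82 in LSC minus HSC (95% interval -6.23 to 2.58), by -0.57 without LSC replicate 1 and by -3.08 without LSC replicate 2. Alox5-/- LSC minus LSC was 1.26 (-3.14 to 5.66). For Gfi1b, Alox5-/- LSC minus HSC was -0.57 as deposited, 0.32 after centring and 0.34 after quantile normalization.

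**Figure D2:**
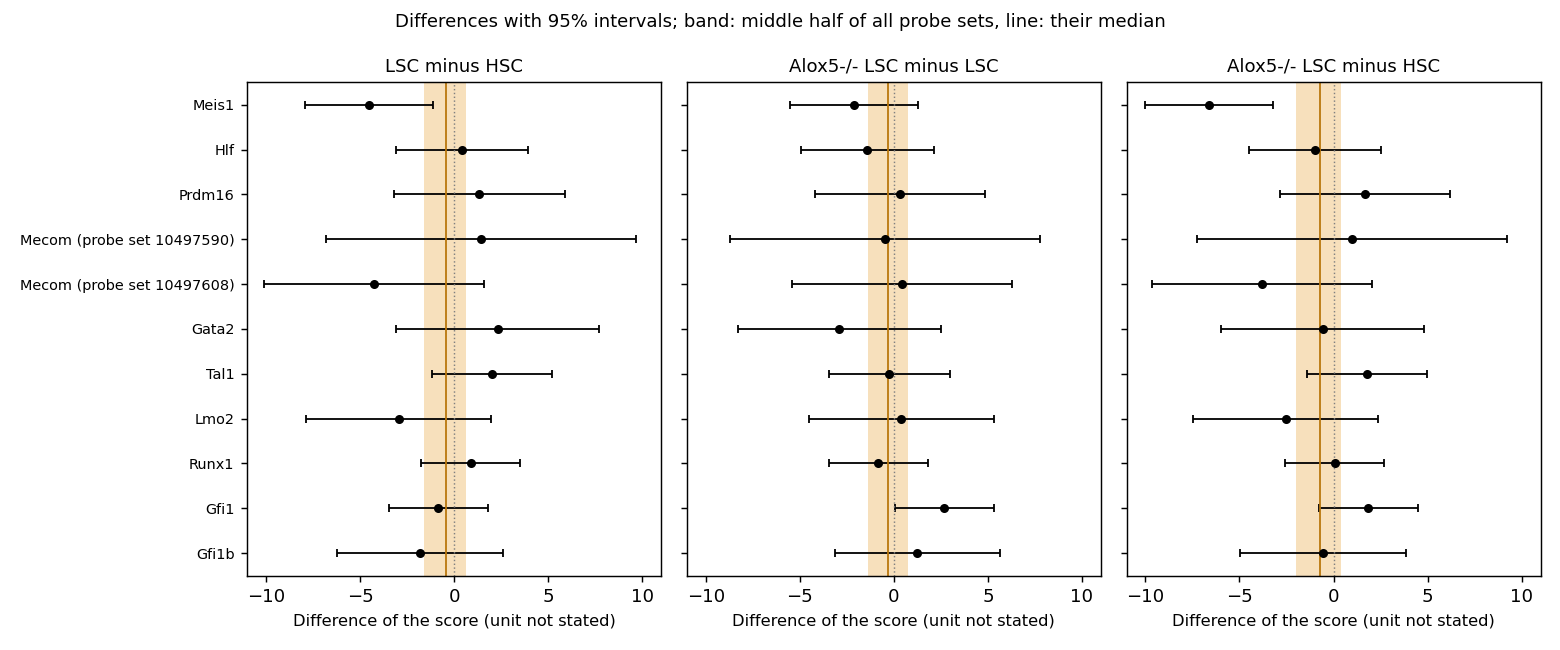
Difference of the score (horizontal axis, unit not stated) with its 95% interval from limma for each stem cell factor probe set in the 3 comparisons; the band runs from the 25th to the 75th percentile of all probe sets and the solid line is their median. Intervals leave out 0 for Meis1 in both comparisons with HSC and for Gfi1 in Alox5-/- LSC minus LSC.

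The members differed widely in how closely their replicates lay in the deposited scores. The pooled SD between replicates ran from 0.17 for Gfi1 and 0.37 for Runx1 to 4.50 for the first Mecom probe set, against a median of 1.51 over all probe sets. The share of variance between groups was 90.3% for Meis1, 70.4% for Runx1 and 57.1% for Tal1, and 3.49% for the first Mecom probe set. Median gaps between replicates of the 11 members were 2.08 in HSC, 1.29 in LSC and 2.82 in Alox5-/- LSC, and over all probe sets 1.68, 1.42 and 1.69. Signs were mixed in each comparison: 6 of 11 members were above 0 in LSC minus HSC, where 13532 of 34499 probe sets were, 5 in Alox5-/- LSC minus LSC (14703) and 5 in Alox5-/- LSC minus HSC (11364).

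**Figure D3:**
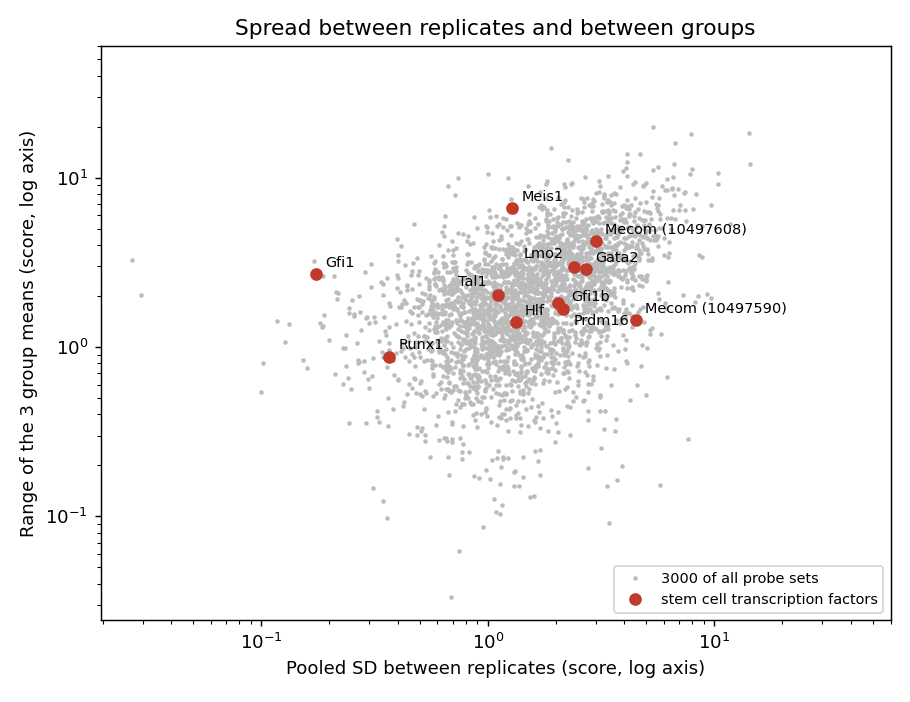
Pooled SD between replicates (horizontal, log axis) against the range of the 3 group means (vertical, log axis), both in units of the score; grey points are 3000 probe sets drawn from all with values. Gfi1 (0.17 and 2.69) lies above and to the left. Meis1 (1.28 and 6.63) lies high, with a pooled SD near the median of all probe sets (1.51). The first Mecom probe set (4.50 and 1.45) lies to the right.

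Likeness between members was measured as the root mean square difference of 2 profiles over the 6 arrays, each centred on its own mean. The measure is small for any pair with narrow ranges, and Runx1, the narrowest, was the nearest member for 5 others, at 0.90 for Hlf and 0.95 for Tal1. These values describe its narrow range and are not read as a shared pattern. The second Mecom probe set and Lmo2 were nearest to each other at 1.41, and both stood highest on HSC replicate 2. The first Mecom probe set was nearest to Prdm16 at 2.02, and these 2 stood highest on Alox5-/- LSC replicate 1. The 2 Mecom probe sets were not each other's nearest. Meis1 had no near member, with Gfi1b closest at 2.57. Outside the members, with 19158 probe sets of named genes compared, Ptpn9 was nearest to the first Mecom probe set (0.83). Vezf1, named after its values were seen, was nearest to Meis1 (0.66). Its scores were 13.9 and 16.2 in HSC, 9.95 and 11.2 in LSC, and 9.51 and 7.97 in Alox5-/- LSC.

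Genes that work with these factors were read from lists of partners, other stem cell factors, HOX cofactors, corepressors, lineage factors and known targets. Of 63 listed genes, 56 were measured, by 58 probe sets, and 0 passed adjustment in any comparison. At an unadjusted limma p under 0.05 there were 5 in LSC minus HSC (2 with higher and 3 with lower scores in LSC), 0 in Alox5-/- LSC minus LSC and 7 in Alox5-/- LSC minus HSC (1 higher, 6 lower). The backgrounds are 4.94%, 3.96% and 6.44%, against 8.62%, 0% and 12.1% of these probe sets. The lists were chosen with earlier results of these data known, so these shares are described only. The comparisons with HSC share the HSC arrays, and Rcor1, Irf8, Cd34 and Procr count in both. The median differences of the listed probe sets were -0.35, -0.20 and -0.86, near the medians of all probe sets.

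Among partners of the Tal1 complex, 1 of 10 probe sets was at that p in LSC minus HSC. This was Lyl1, the bHLH paralogue of Tal1, at 14.9 and 15.6 in HSC, 18.7 and 17.7 in LSC, and 16.8 and 17.2 in Alox5-/- LSC (LSC minus HSC 2.93). All BCR-ABL arrays lay above both HSC arrays, as they did for Tal1. Lyl1 is named here for its p in LSC minus HSC, so this is not read as a shared pattern. Over all probe sets LSC lay above HSC without overlap for 11.1% and Alox5-/- LSC for 8.13%, and the share with both was not counted. Cbfb, the partner of Runx1, stood at 20.4 and 21.2 in HSC, 14.3 and 18.6 in LSC, and 12.2 and 16.6 in Alox5-/- LSC, with Alox5-/- LSC minus HSC at -6.44. Between the BCR-ABL groups 9 of the 10 partner probe sets lay below 0 for Alox5-/- LSC minus LSC, with a median of -1.44, where 57.4% of all probe sets lay below 0 with a median of -0.28. In Alox5-/- LSC minus HSC, where 67.1% of all probe sets lay below 0, 8 of the 10 partners did and 9 of the 12 known targets. So did 6 of the 12 ETS and other stem cell factors, 5 of the 10 lineage factors and 3 of the 6 HOX cofactors. These signs are of the scores as deposited, without centring. Of the 6 probe sets of HOX cofactors of Meis1, 0 were at that p in any comparison.

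Corepressors of the Gfi1 and Mecom families had a median of -2.03 in LSC minus HSC over 8 probe sets, 5 of them below 0, against -0.43 and 60.8% below 0 for all. Against HSC, 7 of the 8 lay below 0 in Alox5-/- LSC, with a median of -1.59. Rcor1, a scaffold of the Kdm1a complex, stood at 16.9 and 15.1 in HSC, 10.7 and 12.4 in LSC, and 13.7 and 10.05 in Alox5-/- LSC. It differed by -4.45 in LSC minus HSC and by -4.13 in Alox5-/- LSC minus HSC. Hdac2, a histone deacetylase of such complexes, stood at 13.5 and 20.2 in HSC, 10.3 and 14.2 in LSC, and 8.26 and 8.58 in Alox5-/- LSC. Its Alox5-/- LSC minus HSC difference was -8.42, with the HSC arrays far apart from each other, and LSC overlapped HSC.

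Lineage factors and targets at an unadjusted p under 0.05 were few. Irf8, a factor of monocyte and dendritic cell fate, stood at 18.4 and 16.1 in HSC, 12.5 and 12.3 in LSC, and 10.96 and 13.99 in Alox5-/- LSC. Klf1, the red cell factor, differed by -3.50 in Alox5-/- LSC minus HSC. The progenitor surface gene Cd34 stood at 15.6 and 16.5 in HSC, 12.3 and 13.0 in LSC, and 11.4 and 13.8 in Alox5-/- LSC. Procr, the endothelial protein C receptor that marks stem cells, ran the other way, at 15.9 and 16.2 in HSC, 19.8 and 19.6 in LSC, and 22.6 and 19.4 in Alox5-/- LSC. The smallest adjusted limma p among these named genes was 0.769.

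Markers of 7 other cell types that a sort could let through were measured by 22 probe sets. At an unadjusted limma p under 0.05 there was 1 in LSC minus HSC (Cd79a; background 4.94%), 0 in Alox5-/- LSC minus LSC (background 3.96%) and 3 in Alox5-/- LSC minus HSC (Cd79a, Cd3d and Klf1, all with lower scores; background 6.44%). Sums of deposited scores were compared between groups over the same probe sets. They were not centred, so differences between array medians (14.5 to 16.4) enter each sum. Among all single probe sets, 34.2% did not overlap in LSC minus HSC, 31.6% in Alox5-/- LSC minus LSC and 35.7% in Alox5-/- LSC minus HSC. These shares are for single probe sets and not for sums. The 3 megakaryocyte markers summed to 42.5 to 46.4 in HSC, 48.8 to 50.2 in LSC and 42.5 to 49.0 in Alox5-/- LSC, and the 2 erythroid markers to 32.5 to 34.1, 29.1 to 30.5 and 26.2 to 33.3. The 3 T cell markers summed to 47.5 to 48.1, 44.9 to 49.8 and 42.6 to 43.0 in the same order, and the 6 granulocyte markers to 71.9 to 76.0, 73.5 to 74.6 and 64.6 to 72.1. LSC lay above HSC for the megakaryocyte sum and below it for the erythroid sum. Alox5-/- LSC lay below both HSC and LSC for the T cell sum, and below LSC for the granulocyte sum. The 3 monocyte markers summed to 45.3 to 52.2, 51.7 to 52.4 and 46.5 to 47.5, and the 3 stromal and endothelial markers to 49.3 to 50.3, 51.21 to 51.24 and 48.2 to 48.8. Alox5-/- LSC lay below LSC for both of these sums, and for the stromal and endothelial sum HSC lay between them. None of the 22 probe sets was at 0 on any array. The part of such cells in the differences above was not tested.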

How the data were processed

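Deposited values were 1 score per probe set and array for 6 arrays. Expression Console 1.1 and RMA are named in the submitters' processing notes; the authors' unit for the deposited score, its scaling and its direction are not given in the sources used here. Of 35557 probe sets in the table, 34499 carried values. In the platform annotation 21789 of the 35557 had exactly 1 gene symbol, 1621 had more than 1 (no gene was named from them) and 12147 had none. Groups came from the sample titles. Scores were used as deposited in limma 3.58.1 (R 4.3.3): a mean per group, 3 residual degrees of freedom, empirical Bayes with a variance trend, two-sided tests, Benjamini-Hochberg adjustment over all 34499 probe sets. The test code was run on simulated data with independent normal noise and no shifts between arrays, unlike these arrays. That run is not used as support here. The number of arrays limits the precision.

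The members and gene lists were chosen with earlier results of these data known. Named were all member probe sets, and list genes at an unadjusted p under 0.05 where none passed; the outside gene nearest in profile was named for the member of widest range. Alternatives were centring, quantile normalization, log2(score + 1), a prior variance without trend, leaving out means below the 25th percentile, 1 probe set per gene, the number in the sample description as a covariate, a replicate block and leaving out each array. Promoter windows came from RefSeq (GRCm38.p6), matched by symbol; no build is named for the array.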

Additional observations from a re-analysis of the deposited data

How the results depend on the processing

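Under the 15 other settings 0 probe sets passed an adjusted p of 0.05 in any comparison (limma; counts at an unadjusted p follow, against 1704, 1365 and 2223 in the main setting), and 456 of 486 member values kept their sign. Part of those values could not change sign. A prior variance without trend, leaving out low means, 1 probe set per gene and the replicate block leave each difference as it was. So does leaving out an array of the group outside the comparison. Testing 1 probe set per gene (highest or lowest mean) gave 939 and 946 at an unadjusted p under 0.05 in LSC minus HSC. The counts were 678 and 673 in Alox5-/- LSC minus LSC, and 1392 and 1380 in Alox5-/- LSC minus HSC. Of the 19934 probe sets tested these were 4.71% and 4.75%, 3.4% and 3.38%, and 6.98% and 6.92%. In the main setting, with 34499 tested, the shares were 4.94%, 3.96% and 6.44%. Leaving out single arrays gave 1345 (LSC replicate 1) to 2630 (HSC replicate 1), 1211 (LSC replicate 2) to 2144 (Alox5-/- LSC replicate 2), and 1754 to 3184. Same-numbered replicates did not deviate together over probe sets (correlations -0.025, -0.041 and -0.048). With 2 arrays per group this cannot decide whether the titles' numbers pair the arrays. The replicate block gave 1517, 1233 and 1923, with 0 at an adjusted p of 0.05.

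Signs turned as follows, and the cause was not tested. In LSC minus HSC, Hlf was -0.14 with the description number and ran from -1.18 to 2.02 over fits without 1 array, and the first Mecom probe set from -1.18 to 4.08. In Alox5-/- LSC minus LSC, Prdm16 was -2.81 with the description number and Tal1 0.17 centred and 0.0780 quantile normalized. Without 1 array Prdm16 ran from -2.08 to 2.76, Mecom from -5.28 to 4.36 and from -0.10 to 0.98, Tal1 from -0.88 to 0.41, Lmo2 from -1.16 to 1.97 and Gfi1b from -0.59 to 3.11. In Alox5-/- LSC minus HSC, the first Mecom probe set was -1.92 and Runx1 -0.0102 with the description number, Gata2 0.30 and Gfi1b 0.32 centred, and Gata2 0.41 and Gfi1b 0.34 quantile normalized. Without 1 array Hlf ran from -2.58 to 0.62, Prdm16 from -0.74 to 4.10, Mecom from -3.84 to 5.81, Gata2 from -2.70 to 1.54, Runx1 from -0.33 to 0.45 and Gfi1b from -2.42 to 1.29.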
